A study of Brachypodium distachyon with 12 samples.

Results

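Leucine-rich repeat receptor kinases are membrane proteins that carry a leucine-rich repeat region outside the cell and a protein kinase domain inside it. Genes of the wild grass Brachypodium distachyon, a small model for cereals, were taken as members when the domain text of the deposited gene table held a leucine rich repeat together with a protein kinase or protein tyrosine kinase domain. Genes whose text also named a wall-associated, salt stress response/antifungal or NB-ARC domain were left out. This gave 214 members of the 39068 genes in the table. Of these, 181 carried a repeat domain other than the short N-terminal one, and 33 carried the N-terminal one alone. The best-match names bore out the label for most members. In 2 cases the best match was no receptor kinase at all (a myosin-type kinase and a plastid desaturase), and in 3 it belonged to another receptor kinase family. A further 70 genes had a leucine-rich repeat receptor kinase as best match but lacked the domain text, and they are not members.

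In plants, the repeat region of such a receptor binds a small peptide or a steroid hormone at the cell surface. A shorter co-receptor of the somatic embryogenesis receptor kinase (SERK) family then joins the pair, the kinase domains phosphorylate each other, and the signal passes to cytoplasmic kinases. In Arabidopsis and rice, receptors of this type set stem cell number, stomatal spacing, organ shape, root meristem activity, abscission and immunity against bacteria. Many members hold few repeats or a kinase domain without catalytic activity, and most have no known ligand.

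RNA was sequenced from wild-type plants of line Bd21-3, grown in closed vessels on liquid MS medium, 2 seedlings to a vessel, with a daily light and dark cycle at constant temperature. Whole roots and shoots were harvested at week 2 and at week 4, with 3 libraries from different plants in each of the 4 groups: week 2 roots, week 4 roots, week 2 shoots and week 4 shoots. All groups share the genotype, the medium and the vessel, and no mutant or treatment was included. Because the weeks are separate harvests, plant age and harvest cannot be told apart.

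Library totals ran from 17261299 to 24186744 counts, and the members took 0.594% to 0.674% of the counts in roots and 0.361% to 0.431% in shoots. Summed CPM (counts scaled to equal TMM library sizes) of all members was 5665 ± 339 in roots at week 2 and 5861 ± 210.2 at week 4, and 4750 ± 97.6 in shoots at week 2 and 4351 ± 86.6 at week 4 (SD, n = 3 here and below). The tissue labels fitted their markers: 27 chlorophyll a-b binding genes summed to at most 7332 CPM in a root library and at least 63229 in a shoot library. Their sum in roots was 1119 to 2299 CPM at week 2 and 6411 to 7332 at week 4. Week 4 shoot replicate 1 stood apart from its fellow replicates. Its median member stood at 10.3 CPM, against 7.11 and 7.26 in replicates 2 and 3 and 12.2 to 13.6 in the week 2 shoots, so values without it are given beside those named results that it moves by over 1.5 times or whose call it decides. In whole organs, fewer cells of a type and less RNA per cell cannot be told apart.

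Of the 214 members, 197 passed the low-count filter and were tested. The other 17 reached at most 1.12 CPM in any library, and 2 of them had no count at all. The median tested member had a mean level of 16.9 CPM over the 12 libraries, and 13 members lay under 1 CPM. The 10 most abundant members held 23.3% of the family's summed CPM. Per kilobase of gene model, the highest levels belonged to BdiBd21-3.5G0153700, a match to SERK1, at a mean of 54.4 CPM per kb, and to BdiBd21-3.1G0973200, a match to STRUBBELIG-RECEPTOR FAMILY 6, at 53.4. BdiBd21-3.4G0206800, a match to Arabidopsis At5g10290, followed at 46.9 CPM per kb.

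The first comparison asked how members differ between roots and shoots. At week 2, 68 members were called higher in roots and 59 lower, at an adjusted p under 0.05 from edgeR. That is 64.5% of those tested, against 56.1% of all tested genes, with 28.4% of all genes higher and 27.7% lower. At week 4, 92 members were called higher and 58 lower (76.1%, against 60.9% of all genes, 32.4% higher and 28.5% lower). These shares of all tested genes are also the background for the counts between organs by role group and by list below. The member median of the log2 difference (log2 fold change), root over shoot, was -0.03 at week 2 beside 0.01 over all tested genes, and 0.58 at week 4 beside 0.04. At week 4, 47 members were called higher by at least 2 on the log2 scale and 25 lower, beside 12.3% and 10.8% of all tested genes at that size. No library of one organ overlapped one of the other for 77 root-higher and 78 root-lower members at week 2 (32.9% and 32.0% of all tested genes), and for 96 and 63 at week 4 (35.1% and 31.8%). At both weeks, 61 members were called higher in roots (31.0%, against 23.9% of all tested genes) and 50 lower (25.4%, against 22.3%), and 1 was lower at week 2 and higher at week 4. Another 30 members were called higher at week 4 alone (15.2%, against 8.31% of all tested genes).

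**Figure D1:**
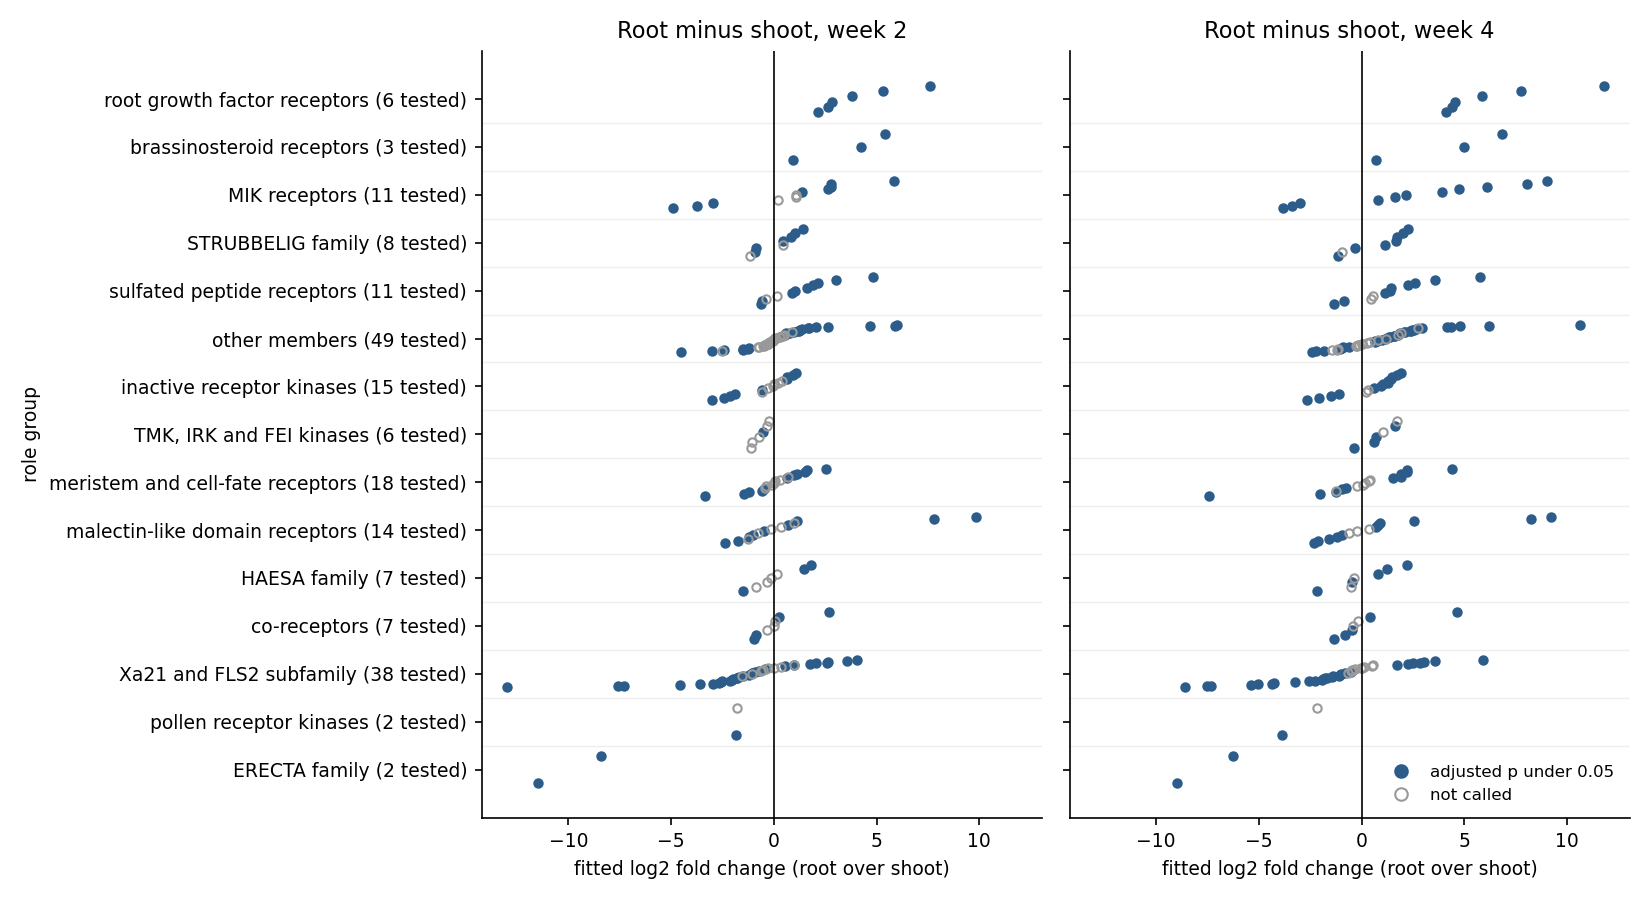
Fitted log2 fold change, root over shoot, of each of the 197 tested members (points), by role group, at week 2 (left) and week 4 (right). Filled points were called at an adjusted p under 0.05 in edgeR. The 6 root growth factor receptor matches and the 3 members grouped by name as brassinosteroid receptors lie to the right at both weeks. Both ERECTA genes lie to the left, and the Xa21 and FLS2 subfamily spreads to both sides. Values beyond 8 in size belong to genes with at most 18 counts in one organ and are not bounds.

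Both members of the ERECTA family were shoot genes. In Arabidopsis, ERECTA and ERECTA-LIKE 1 (ERL1) receive epidermal patterning factor peptides and set stomatal spacing, stem elongation and organ shape. ERECTA (BdiBd21-3.1G0609800, chromosome 1, 45422520 to 45430863, plus strand) stood at 105, 89.0 and 83.1 CPM in the week 2 shoots and at 26.1, 6.89 and 4.71 in the week 4 shoots. In roots it stood at 0.656, 0.0767 and 0.0507 CPM at week 2 and at 0.124, 0.150 and 0.211 at week 4. Every shoot library lay above every root library, and every week 2 shoot lay above every week 4 shoot. The log2 fold change, root over shoot, was -8.43 at week 2 (SE 0.87, adjusted p = 1.73e-05), while at week 4 it was -6.24 (SE 0.90, adjusted p = 0.000172), or -5.17 without week 4 shoot replicate 1. In shoots, ERECTA fell by 2.87 on the log2 scale from week 2 to week 4 (SE 0.60, adjusted p = 0.00568), and by 4.03 without week 4 shoot replicate 1.

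ERL1 (BdiBd21-3.1G0662500, chromosome 1, 49080411 to 49087690, plus strand) followed the same order. Its levels were 114, 98.1 and 91.3 CPM in week 2 shoots and 35.8, 8.94 and 5.19 in week 4 shoots. Only 2 counts fell on it in the 3 roots of each week, and 3 of the 6 root libraries had none. The shoot level was 3475 times that of roots at week 2 (95% counting interval 962 to 28704) and 659 times at week 4 (182 to 5449), or 261 times at week 4 without shoot replicate 1 (71.4 to 2163). In shoots it fell by 2.59 (SE 0.59, adjusted p = 0.00801), or by 3.87 without week 4 shoot replicate 1. The fall was not called when the shoot libraries were fitted alone (adjusted p = 0.0639).

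The genes matching the ligands of ERECTA receptors were chosen by name as well. Of 12 epidermal patterning factor and factor-like genes, 10 were tested. At week 2, 7 were called lower in roots and 0 higher, and at week 4, 3 were lower and 1 higher. In shoots, 5 fell with week and 0 rose, beside 19.4% and 14.5% of all tested genes. The highest group mean of any of these genes was 9.97 CPM, in week 2 shoots, and several groups held few counts. Over the whole list of 17 peptide ligand genes, which also holds phytosulfokine and CLAVATA3-type precursors, 13 were tested, the 10 just given among them. In roots, 8 were lower and 2 higher at week 2, and 4 were lower and 3 higher at week 4. The most abundant per kilobase was BdiBd21-3.1G0933500, a phytosulfokine precursor, at 9.68 ± 2.92 CPM in week 2 shoots, 20.7 ± 4.06 in week 4 shoots, 1.18 ± 0.513 in week 2 roots and 0.920 ± 0.331 in week 4 roots. It was lower in roots at both weeks (log2 fold changes of -3.01 and -4.48).

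All 6 matches to root growth factor receptors were called higher in roots at both weeks. All 6 also fell with week in shoots, where 19.4% of all tested genes were called lower. Their Arabidopsis counterparts perceive the root meristem growth factor peptides that maintain the root stem cell niche. The summed level of the group went from 524 ± 13.4 to 298 ± 12.8 CPM in roots between the weeks, and from 45.7 ± 9.87 to 5.34 ± 5.60 CPM in shoots. All 6 calls were kept in each comparison when any 1 library was left out. The median log2 fold change over the 6, root over shoot, was 3.31 at week 2 and 5.21 at week 4. Week 4 shoot replicate 1 held 11.8 CPM of the group, against 2.85 and 1.43 in replicates 2 and 3, and the fitted week 4 median without it was 7.06.

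The gene with the steepest contrast of the group was BdiBd21-3.3G0516600, a match to At4g26540 (chromosome 3, 41465261 to 41469109, plus strand). It stood at 132, 132 and 125 CPM in week 2 roots and at 83.9, 87.4 and 76.7 in week 4 roots. The week 2 shoots held 0.352, 1.25 and 0.323 CPM, and 1 count was found in the 3 week 4 shoots together. Roots lay above shoots in every library, by a log2 difference of 7.60 at week 2 (SE 0.36, adjusted p = 1.67e-08). At week 4 the root level was 4803 times the shoot level, with a counting interval of 862 to 189743. That 1 count was in shoot replicate 1, and without it the root level was at least 1004-fold higher.

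A paralog with the same best match, BdiBd21-3.4G0462900 on chromosome 4 (39105383 to 39109462, plus strand), stood at 108, 120 and 126 CPM in week 2 roots and 84.6, 83.3 and 89.3 in week 4 roots. The shoot libraries held 5.03, 2.74 and 1.02 CPM at week 2 and 0.557, 0.569 and 0.0530 at week 4. Its log2 fold change was 5.32 at week 2 (SE 0.47, adjusted p = 4.26e-06) and reached 7.74 at week 4 (SE 0.58, adjusted p = 1.19e-06), with no overlap of libraries. The other At4g26540 match, BdiBd21-3.2G0056900 on chromosome 2 (3064969 to 3069570, plus strand), was less one-sided at 95.3 ± 6.05 CPM in week 2 roots and 21.2 ± 3.82 in week 2 shoots. In week 4 shoots it stood at 4.92, 1.42 and 0.477 CPM, and its fall with week there was 3.18 on the log2 scale (SE 0.55, adjusted p = 0.00215), or 4.53 without replicate 1. BdiBd21-3.1G0503700, a match to At1g34110 on chromosome 1 (33413529 to 33417968, plus strand), was the sole member of the group called between weeks in roots with all 12 libraries. It went from 30.8, 29.1 and 27.0 CPM to 12.0, 13.5 and 14.2, a log2 difference of -1.13 (SE 0.32, adjusted p = 0.0316). That call was lost when any 1 root library was left out (adjusted p up to 0.117). For BdiBd21-3.2G0056900 the root change with week was -1.23 and not called (adjusted p = 0.0971 from edgeR). Without week 4 shoot replicate 1 it was -1.28 and called (adjusted p = 0.00366 from edgeR).

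**Figure D2:**
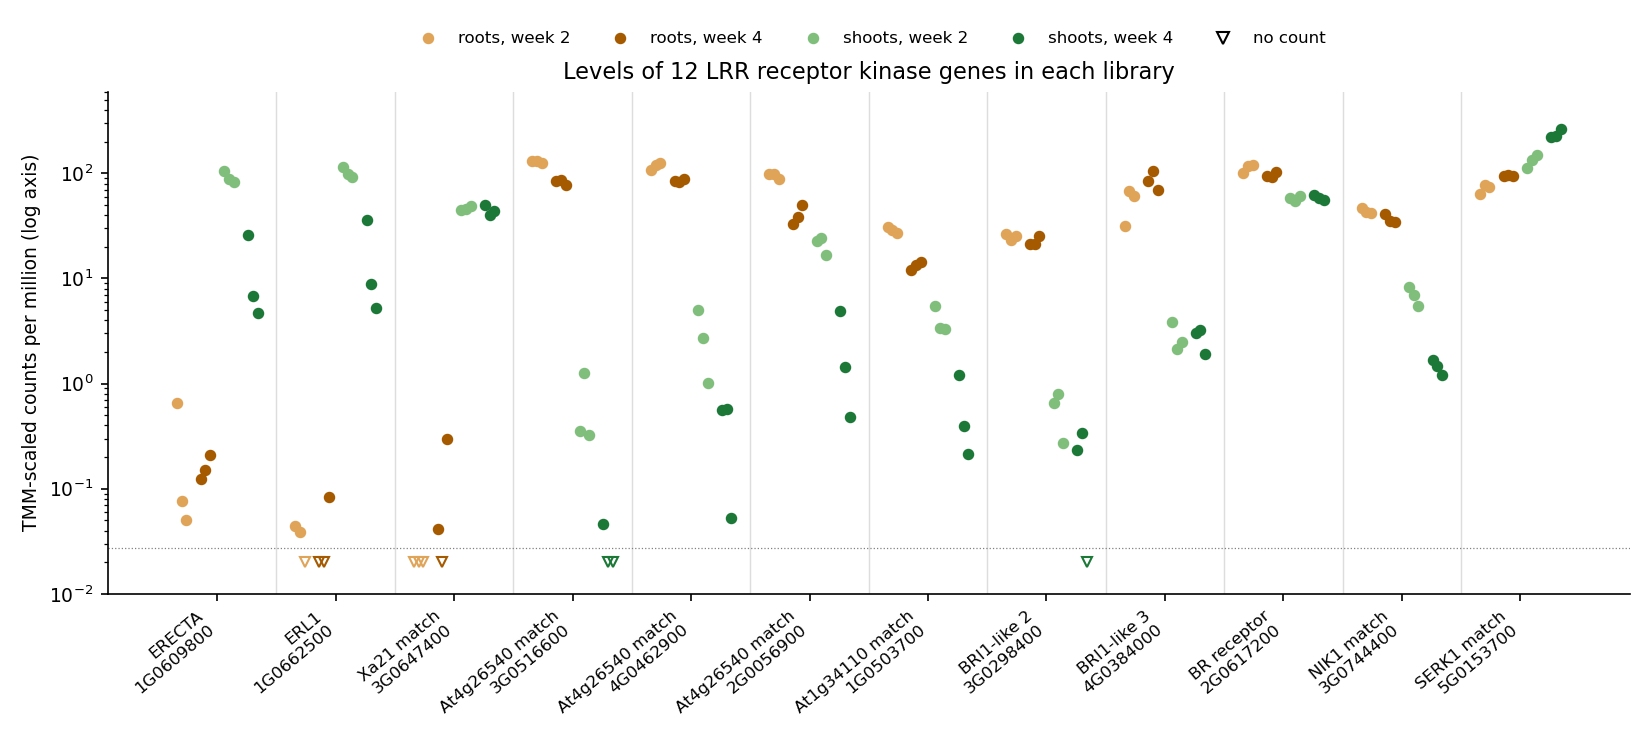
TMM-scaled CPM (log axis) of 12 members in each library, with 3 points per group and open triangles for libraries with no count. ERECTA, ERL1 and the Xa21 match lie near 0 in roots, and the root growth factor receptor and BRI1-like matches lie lower in shoots than in roots. In week 4 shoots, replicate 1 is the upper point for ERECTA at 26.1 CPM.

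The brassinosteroid receptor group was formed by name and holds 3 matches, to BRI1, BRI1-like 2 and BRI1-like 3. Hormone binding was not tested for any of them. All 3 were called higher in roots at both weeks and in neither tissue between weeks. BRI1 is the main receptor of brassinosteroids, steroid hormones of cell elongation, and BRI1-like 3 binds the same hormones in the vascular tissue of Arabidopsis. The main receptor's match, BdiBd21-3.2G0617200 (chromosome 2, 48043852 to 48050537, minus strand), stood at 99.9, 117 and 120 CPM in week 2 roots, against 58.0, 54.9 and 61.4 in week 2 shoots. At week 4 the values were 95.1, 92.6 and 103 in roots and 62.6, 58.4 and 55.4 in shoots. It was high in both organs, with a log2 difference of 0.95 at week 2 (SE 0.09, adjusted p = 3.95e-06), while at week 4 it was 0.72 (SE 0.09, adjusted p = 3.77e-05).

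The other 2 were close to confined to roots. BRI1-like 3 (BdiBd21-3.4G0384000, chromosome 4, 32591231 to 32596999, minus strand) stood at 31.4, 67.7 and 61.5 CPM in week 2 roots and 85.3, 105 and 69.5 in week 4 roots, and at 1.91 to 3.82 CPM in the 6 shoots. BRI1-like 2 (BdiBd21-3.3G0298400, chromosome 3, 20815446 to 20819224, minus strand) stood at 26.3, 23.3 and 25.5 CPM in week 2 roots and 21.4, 21.1 and 25.5 in week 4 roots, and at no more than 0.790 CPM in any shoot. No root library overlapped a shoot library for either gene. Their log2 fold changes at week 2 were 4.25 (SE 0.35, adjusted p = 1.73e-06) and 5.42 (SE 0.39, adjusted p = 3.22e-07). Of 15 tested genes of brassinosteroid signalling, 4 were higher and 1 lower in roots at week 2, and 7 and 4 at week 4. Of 14 genes of brassinosteroid synthesis and turnover, 7 were higher and 5 lower at week 2, and 7 and 4 at week 4. The most abundant synthesis gene per kilobase, the CYP90A1 match BdiBd21-3.4G0599200, was lower in roots at week 2 (log2 difference -1.70, SE 0.14).

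The co-receptors lay on both sides of the comparison between organs. SERK proteins pair with many ligand-binding receptors, BRI1 and the root growth factor receptors among them. Of 7 tested members, 2 were called higher and 2 lower in roots at week 2, and 2 and 3 at week 4. All tested genes also lay on both sides, with 28.4% higher and 27.7% lower at week 2, and 32.4% and 28.5% at week 4. The SERK1 match BdiBd21-3.5G0153700 (chromosome 5, 15927914 to 15935004, minus strand) stood at 64.2, 76.7 and 73.4 CPM in roots at week 2 and at 93.8, 97.0 and 94.99 at week 4. Shoots held 113, 134 and 150.3 CPM at week 2 and 224, 228 and 263 at week 4. The 4 groups did not overlap, and the order rose from young roots to older shoots. It rose with week in shoots by 0.85 (SE 0.12, adjusted p = 0.000506) and in roots by 0.42 (SE 0.11, adjusted p = 0.0277). The root call was lost under 5 of the 21 alternatives, each of them leaving out a root library.

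The other 2 SERK1 matches had closer group means. BdiBd21-3.3G0209300 had group means of 72.0 to 96.7 CPM and BdiBd21-3.3G0620800 of 79.1 to 109 CPM. Neither was called between organs at week 2, while at week 4 the first was higher in roots by 0.41 (adjusted p = 0.0052 from edgeR) and the second lower by a log2 difference of -0.46 (adjusted p = 0.00096). NSP-INTERACTING KINASE 1, known from Arabidopsis for a role in antiviral defence, had 2 matches that differed. BdiBd21-3.3G0744400 (chromosome 3, 56210616 to 56215379, plus strand) stood at 46.9, 43.1 and 41.6 CPM in week 2 roots, 8.24, 6.92 and 5.44 in week 2 shoots and 1.67, 1.48 and 1.22 in week 4 shoots. It was higher in roots by 2.67 at week 2 (SE 0.16, adjusted p = 4.67e-08) and by 4.65 at week 4 (SE 0.18, adjusted p = 8.64e-09), and week 4 shoot replicate 1 stayed near its fellows here. BdiBd21-3.1G0567900, with the same best match, had group means of 14.0 to 23.7 CPM and was called in no comparison. BIR2 (BdiBd21-3.5G0178600), which in Arabidopsis holds the co-receptor BAK1 inactive, had means of 43.3 to 58.7 CPM and rose in shoots by 0.44 (SE 0.09, adjusted p = 0.00387).

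Receptors named for tyrosine-sulfated peptides lay mostly on the root side. The group holds matches to the Arabidopsis phytosulfokine receptor and to PSY1R, a tyrosine-sulfated glycopeptide receptor, both tied to cell expansion. At each week, 7 of 11 were called higher in roots and 2 lower. BdiBd21-3.3G0018550, a PSY1R match on chromosome 3 (1162292 to 1171748, minus strand), stood at 48.1, 68.6 and 57.6 CPM in week 2 roots and 91.2, 83.8 and 70.6 in week 4 roots. In shoots the values were 19.4, 12.6 and 15.2 CPM at week 2 and 9.20, 6.32 and 4.93 at week 4. The organs moved apart with week, from a log2 difference of 1.88 (SE 0.23, adjusted p = 2.65e-05) to 3.58 (SE 0.25, adjusted p = 2.80e-07).

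A run of 5 neighbouring PSY1R matches on chromosome 3, between 3045705 and 3084098, did not act as a block. At week 4, 2 of the 5 were called higher in roots and 2 lower. BdiBd21-3.3G0054200 at one end stood at 14.0, 13.0 and 19.1 CPM in roots at week 2 and 20.4, 21.8 and 27.4 at week 4. In shoots it went from 20.2, 22.0 and 26.3 CPM to 51.3, 67.0 and 57.6. It was lower in roots at week 4 by a log2 difference of -1.34 (SE 0.17, adjusted p = 3.73e-05). Its neighbour BdiBd21-3.3G0053600 was higher in roots at week 4 (4.61 ± 0.212 against 2.09 ± 0.677 CPM, log2 fold change 1.14, SE 0.33, adjusted p = 0.0106). Of all 214 members, 55 lay in 22 runs with at most 5 other genes between neighbours. Of 13 runs with at least 2 members called at week 4, the calls were on one side in 9. No share for unrelated members was taken, so the count does not show whether neighbours share a side more often than other members. The sources used here do not give how reads that match several of these copies were counted, so values within a run are uncertain where copies are near-identical.

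Receptors tied to meristems and cell fate were called on both sides, as were all tested genes. CLAVATA1-type receptors and their BAM relatives bind CLE peptides, and the CLAVATA1-type receptors limit stem cell number in Arabidopsis and rice. Of 18 tested, 6 were called higher in roots and 5 lower at week 2, and 7 and 5 at week 4. The shares of all tested genes were 28.4% higher and 27.7% lower at week 2, and 32.4% and 28.5% at week 4. The match to rice FLORAL ORGAN NUMBER1, the CLAVATA1 counterpart (BdiBd21-3.1G0402200, chromosome 1, 25844724 to 25849333, minus strand), had a mean of 136 ± 10.4 CPM in week 2 roots and 43.8 ± 4.31 in week 2 shoots. Its log2 fold change, root over shoot, was 1.64 (SE 0.18, adjusted p = 8.50e-06), and 1.52 at week 4.

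BAM1 had 6 matches, which shared no direction. BdiBd21-3.1G0931500 (chromosome 1, 68242343 to 68245991, minus strand) stood at 61.3 to 65.9 CPM in week 2 roots and 65.4 to 76.0 in week 4 roots. In shoots it went from 25.9, 21.1 and 20.9 CPM to 5.76, 1.99 and 1.96, a fall of 2.78 (SE 0.33, adjusted p = 0.000374), or 3.55 without replicate 1. BdiBd21-3.2G0632400 went the other way in shoots, from 8.90, 10.3 and 13.8 CPM to 48.2, 32.4 and 38.9, a log2 difference of 1.85 (SE 0.56, adjusted p = 0.0277). That second call was lost under 5 of the 21 alternatives, one of them leaving out week 4 shoot replicate 1. The HAIKU2 match BdiBd21-3.4G0009800, named for a receptor of endosperm growth in Arabidopsis, rose in shoots from 66.3 ± 9.62 to 147 ± 21.9 CPM (log2 difference 1.14, SE 0.16, adjusted p = 0.000506). The RPK2 match BdiBd21-3.1G0112800 had group means of 62.7 to 86.2 CPM and was not called between organs.

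HAESA receptors perceive the abscission peptide IDA in Arabidopsis. The match to receptor-like protein kinase 5, another name for HAESA (BdiBd21-3.1G0515500), went from 41.5 ± 9.54 to 64.97 ± 2.12 CPM in roots and from 14.9 ± 0.777 to 27.6 ± 1.84 CPM in shoots. It was higher in roots at both weeks (log2 fold changes of 1.47 and 1.23) and rose with week in both organs (0.65 in roots and 0.89 in shoots). The HAESA-like 1 matches BdiBd21-3.2G0109500 and BdiBd21-3.4G0008900 were not called between organs at week 2. At week 4 the first of them was lower in roots (log2 difference -0.46, adjusted p = 0.0063 from edgeR).

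MDIS1-interacting receptor kinases (MIK) are known in Arabidopsis for pollen tube guidance, and MIK2 also for sensing defence peptides of the SCOOP type. Of 11 tested, 5 were called higher and 3 lower in roots at week 2, and 8 and 3 at week 4. The MIK1 match BdiBd21-3.1G1007700 (chromosome 1, 72942999 to 72946657, plus strand) stood at 71.2, 75.4 and 78.0 CPM in week 2 roots and 40.6, 43.9 and 44.7 in week 4 roots, against at most 1.86 CPM in any shoot. Another MIK1 match, BdiBd21-3.2G0725200 on chromosome 2 (54505232 to 54510012, plus strand), showed the reverse. It stood at 53.1, 42.9 and 48.2 CPM in week 2 shoots and 79.5, 97.8 and 89.9 in week 4 shoots, against 3.19 to 8.60 CPM in the 6 roots. Neither gene's root libraries overlapped its shoot libraries, and the log2 fold changes at week 2 were 5.85 (SE 0.40, adjusted p = 3.63e-07) and -3.74 (SE 0.21, adjusted p = 3.57e-08).

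The largest group, 43 members matching Xa21, FLS2 and their relatives, lay mostly on the shoot side. Rice Xa21 confers resistance to bacterial blight, and Arabidopsis FLS2 perceives bacterial flagellin. Of 38 tested, 22 were called lower and 8 higher in roots at week 2, and 21 and 7 at week 4. Their median log2 fold change, root over shoot, was -1.07 at week 2 and -0.91 at week 4.

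The Xa21 match BdiBd21-3.3G0647400 (chromosome 3, 50116135 to 50119820, plus strand) had no count in the 3 week 2 roots and 8 counts in the week 4 roots. In shoots it stood at 44.8, 45.5 and 48.9 CPM at week 2 and 50.2, 40.0 and 43.4 at week 4. With 3 counts over the group as the floor, it was at least 1063-fold lower in week 2 roots. A neighbour in the same run, the At3g47110 match BdiBd21-3.3G0647000 (50067473 to 50073580, plus strand), had 43.7, 66.4 and 65.7 CPM in week 2 shoots and at most 0.830 CPM in any root. It was lower in roots by a log2 difference of -7.31 (SE 0.55, adjusted p = 1.17e-06) at week 2 and -7.34 at week 4.

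On the root side, another Xa21 match, BdiBd21-3.4G0344200 (chromosome 4, 29637981 to 29643012, plus strand), was the most abundant of the subfamily. It stood at 87.9, 81.8 and 112 CPM in week 2 roots and 205, 194 and 186 in week 4 roots. Shoots held 14.98, 2.83 and 5.82 CPM at week 2 and 12.5, 19.1 and 18.0 at week 4. The organs did not overlap, with log2 fold changes of 3.58 (SE 0.48, adjusted p = 0.000114) and 3.56 (SE 0.48, adjusted p = 9.49e-05), and the change with week was not called in either organ.

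The smaller groups showed single members with sharp contrasts. Of 14 tested receptors with a malectin-like domain, 4 were higher and 5 lower in roots at week 2, and 6 and 5 at week 4. Among them, the At1g51860 match BdiBd21-3.2G0253700 had no count in any shoot library and 2.40, 7.59 and 5.98 CPM in week 2 roots, at least 106-fold higher in roots. The At1g53430 match BdiBd21-3.3G0119700 was a shoot gene at 61.5 ± 1.36 CPM in week 2 shoots against 18.5 ± 2.27 in week 2 roots (log2 difference -1.73, SE 0.10, adjusted p = 3.12e-08). STRUBBELIG receptors, which in Arabidopsis shape organs and cell layers, gave 4 higher and 2 lower of 8 at week 2. The 2 members of its branch with the highest levels differed in side. STRUBBELIG-RECEPTOR FAMILY 6 (BdiBd21-3.1G0973200) stood at 213 ± 8.63 CPM in roots and 120.2 ± 9.55 in shoots at week 2, while FAMILY 1 (BdiBd21-3.1G0321900) stood at 86.6 ± 4.80 and 159.7 ± 4.68. Among members with no group, the At2g24130 match BdiBd21-3.1G0619100 had no count in week 4 shoots and 686 in week 4 roots, at least 179-fold higher in roots, or at least 112-fold without shoot replicate 1, where the floor rests on fewer libraries. The pollen receptor kinase 4 match BdiBd21-3.3G0532400 was found at 17.8 ± 6.25 CPM in week 4 shoots and 1.23 ± 0.214 in week 4 roots.

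The next comparison asked what changed from week 2 to week 4 within an organ. In shoots, 40 members were called higher at week 4 and 70 lower, 55.8% of those tested against 33.9% of all genes (14.5% higher and 19.4% lower). Of these, 35 were lower by at least 2 on the log2 scale, and 1 was higher by as much, beside 5.36% and 0.99% of all tested genes. Week 4 libraries lay wholly above week 2 libraries for 56 members and wholly below for 80 (23.3% and 25.6% of all tested genes). The median over all 197 was -0.06, beside 0.00 over all tested genes. Without week 4 shoot replicate 1, 37 were higher and 71 lower. The median log2 change of the 70 fallen members against the week 2 shoot mean, on log2(CPM + 0.5), was -1.11 in replicate 1, -1.55 in replicate 2 and -2.04 in replicate 3.

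Of the 70 members that fell in shoots, 49 were called higher in roots than shoots at week 4, 8 were lower and 13 were not called. Both calls use the same week 4 shoot libraries, so low values there favour both, and the share over all tested genes was not taken. Core histone genes, a sign of dividing cells, were chosen for display after the values were seen. The 57 histone genes summed to 2982 to 3415 CPM in week 2 shoots and to 1889, 1379 and 1317 in the week 4 shoot replicates 1, 2 and 3. In roots they went from 2673 ± 99.7 to 1986 ± 156 CPM. The 70 members, taken because they fell in shoots, summed to 2022 to 2301 CPM in week 2 shoots. In week 4 shoot replicates 1, 2 and 3 they summed to 1021, 698 and 561 CPM. Root libraries held 2791 to 2911 CPM of them at week 2 and 2034 to 2414 at week 4. At week 2 the histone sum was thus higher in shoots, and the members' sum was higher in roots. Whether the histone genes have a part in the members' fall was not tested.

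**Figure D3:**
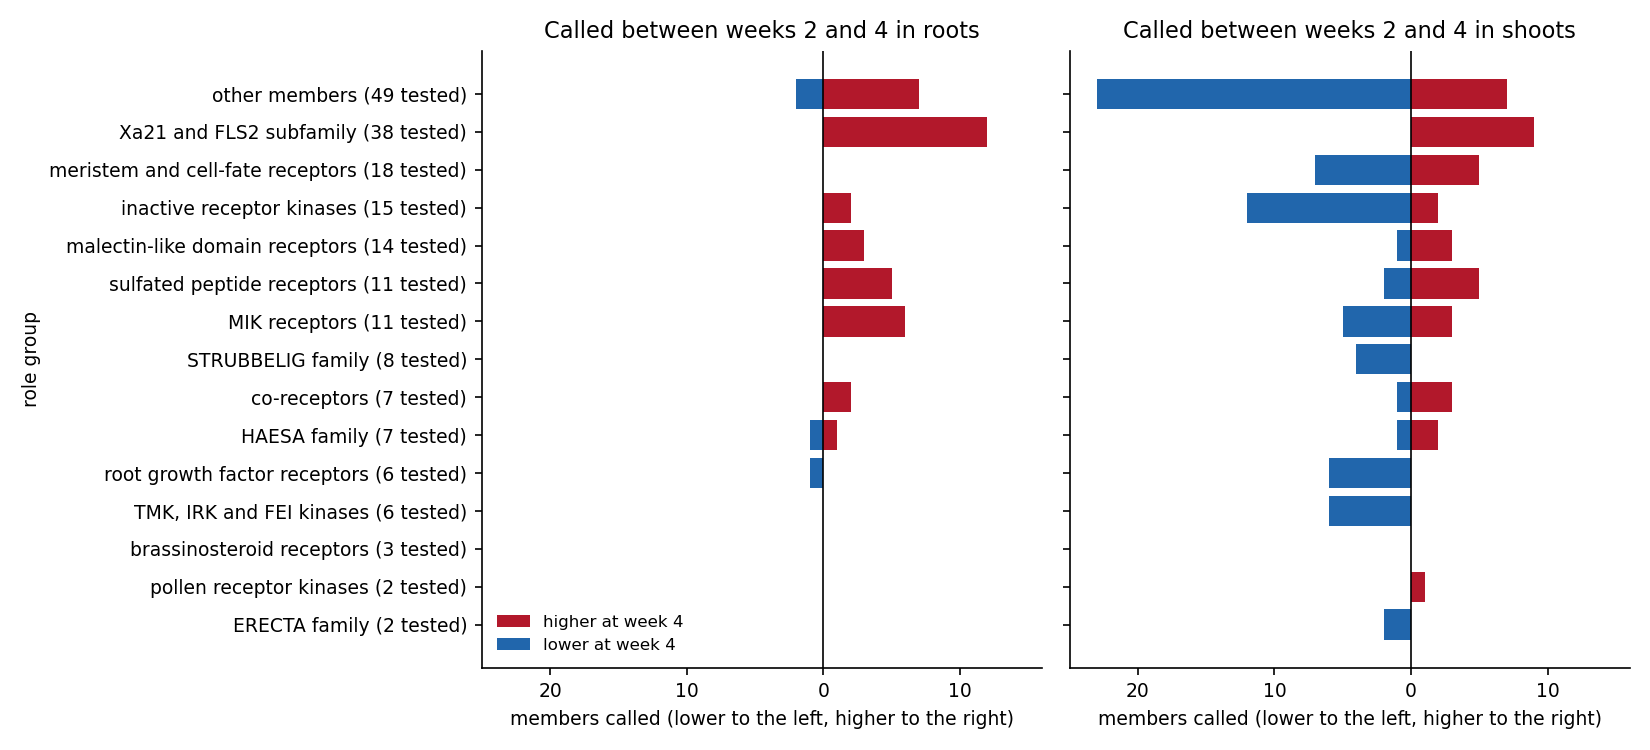
Number of members called between week 2 and week 4 in roots (left) and shoots (right), by role group, with members higher at week 4 to the right of 0 and lower ones to the left. In shoots the bars of the inactive receptor kinases, the TMK, IRK and FEI kinases and the root growth factor receptors point mostly to lower levels, and the Xa21 and FLS2 subfamily has 9 higher and 0 lower.

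The falls in shoots were counted by role group, beside 19.4% of all tested genes called lower and 14.5% called higher there. All 6 members matching TMK, IRK and FEI kinases fell, as did 12 of 15 inactive receptor kinases, of which 2 rose. In Arabidopsis, TMK kinases act in auxin signalling, IRK was found in root and inflorescence tips, and FEI kinases affect wall synthesis in growing root cells. The count for TMK, IRK and FEI was 5 without week 4 shoot replicate 1, and that for inactive kinases stayed at 12. Of the 8 tested STRUBBELIG members, 4 fell and 0 rose by the edgeR test. Of the 49 tested members in no role group, 23 fell and 7 rose.

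FEI 1 had 2 matches, both falling. BdiBd21-3.4G0004900 (chromosome 4, 255886 to 259891, plus strand) went from 25.4, 24.8 and 26.3 CPM to 5.02, 0.114 and 0 in shoots. Replicate 1 alone held nearly all of the week 4 counts. Its fall was 3.84 on the log2 scale (SE 0.98, adjusted p = 0.0138), and the fit of the shoot libraries alone did not call it (adjusted p = 0.0936). Without replicate 1 the week 2 level was 464 times that of week 4 (counting interval 128 to 3835). Roots and shoots were not called apart at week 4 (log2 difference 1.71, adjusted p = 0.144), whereas without replicate 1 the root level was 106 times the shoot level (29.1 to 876). BdiBd21-3.1G0903200 fell less, from 90.3 ± 5.09 to 36.8 ± 10.3 CPM (log2 difference -1.29, SE 0.16, adjusted p = 0.000321). The TMK1 match BdiBd21-3.3G0705600 went from 93.8 ± 7.90 to 37.8 ± 8.65 CPM (-1.31, SE 0.17, adjusted p = 0.000432), and the TMK3 match BdiBd21-3.5G0349200 from 104 ± 14.1 to 75.5 ± 7.62 (-0.46, SE 0.13, adjusted p = 0.0210). The TMK3 call was lost without replicate 1 or without week 2 shoot replicate 2 (adjusted p up to 0.0733).

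The most abundant inactive kinase, the At1g48480 match BdiBd21-3.1G0937900 (chromosome 1, 68749571 to 68754716, minus strand), stood at 133, 147 and 117 CPM in week 2 shoots and 66.7, 52.3 and 34.1 in week 4 shoots. Those groups did not overlap, and the fall was 1.37 (SE 0.21, adjusted p = 0.000933). The At2g26730 match BdiBd21-3.2G0550300 went from 84.8, 96.9 and 71.0 CPM to 33.5, 13.9 and 5.51, a fall of 2.25 (SE 0.49, adjusted p = 0.00663), or 3.15 without replicate 1. That fall was not called when the shoot libraries were fitted alone (adjusted p = 0.0609 from edgeR). Against the group, the RLK902 match BdiBd21-3.4G0418700 rose from 5.68, 7.57 and 3.45 CPM to 14.8, 15.8 and 14.9 (1.44, SE 0.27, adjusted p = 0.00243).

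Members that rose in shoots came from several groups, among them 5 of the 11 sulfated peptide receptors and 3 of the 7 co-receptors. Of all tested genes, 14.5% were called higher with week in shoots and 19.4% lower. None of the 38 tested Xa21 and FLS2 members was called lower in shoots by edgeR and 9 were higher, with 7 to 11 higher and 0 to 1 lower when each library was left out in turn. The summed level of the subfamily went from 416 ± 55.4 to 647 ± 83.1 CPM in shoots. The Xa21 match BdiBd21-3.4G0170000 (chromosome 4, 11509730 to 11513588, plus strand) rose from 6.48, 12.5 and 14.0 CPM to 46.5, 28.3 and 43.3, a log2 difference of 1.84 (SE 0.28, adjusted p = 0.000839). Outside the subfamily, the At5g10290 match BdiBd21-3.4G0206800 rose from 125, 89.9 and 124 CPM to 244, 273 and 301 (1.27, SE 0.17, adjusted p = 0.000445). The week 4 libraries lay above all week 2 libraries for both genes.

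In roots, 38 members were called higher at week 4 and 4 lower, 21.3% of those tested against 18.8% of all genes (12.4% higher and 6.35% lower). Libraries of the weeks did not overlap for 61 higher and 50 lower members (23.8% and 18.6% of all tested genes). The median over the 197 was 0.11, beside 0.05 over all tested genes. These counts depended on the fit: with the 6 root libraries alone, 30 were higher and 37 lower. With limma-voom 43 were higher and 20 lower, and with DESeq2 40 and 12. Leaving out week 2 root replicate 1 gave 24 calls, week 4 root replicate 1 gave 26 and week 4 root replicate 2 gave 23, while leaving out week 4 shoot replicate 1 gave 63 (37 higher and 26 lower). Chlorophyll a-b binding genes rose in the same root libraries, as given above, and their part was not tested.

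The 38 members that rose in roots included 12 of the 38 tested in the Xa21 and FLS2 subfamily. They also included 6 of the 11 tested in the MIK group and 5 of the 11 sulfated peptide receptors. Of all tested genes, 12.4% were called higher at week 4 than at week 2 in roots. Leaving out 1 library gave 8 to 13 rising members in the first group. The MIK count went down to 3 without week 2 root replicate 1 or 3 or week 4 root replicate 2. For the sulfated peptide receptors it went down to 3 in 5 cases, when replicate 1 or 2 of the week 2 roots, replicate 2 or 3 of the week 4 roots, or replicate 2 of the week 2 shoots was left out. The summed level of the Xa21 and FLS2 subfamily went from 313 ± 49.6 CPM in week 2 roots to 563 ± 28.6 in week 4 roots.

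The steepest named rise in roots was that of the At3g47570 match BdiBd21-3.4G0156400 (chromosome 4, 10513195 to 10517643, plus strand). It went from 5.64, 5.94 and 6.03 CPM to 28.2, 20.1 and 15.6, a log2 difference of 1.86 (SE 0.25, adjusted p = 0.00118), and rose in shoots as well (1.15, SE 0.24, adjusted p = 0.00418). A second At3g47570 match, BdiBd21-3.5G0056001, went from 1.22, 1.88 and 3.09 CPM to 7.96, 6.95 and 5.09 (1.70, SE 0.30, adjusted p = 0.00363). The PSY1R match BdiBd21-3.3G0053600 went from 1.44, 1.23 and 1.62 CPM to 4.85, 4.51 and 4.46 (1.69, SE 0.34, adjusted p = 0.00639). No week 4 root overlapped a week 2 root for these 3 genes.

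Among more abundant members, the At1g63430 match BdiBd21-3.5G0219900 rose in roots from 70.0, 97.7 and 105 CPM to 216, 226 and 178 (1.19, SE 0.16, adjusted p = 0.00108). The 4 members that fell in roots were the At1g34110 match given above, the HAESA-like 1 match BdiBd21-3.2G0109500 (-0.39, SE 0.12, adjusted p = 0.0478) and the 2 matches to proline-rich extensin-like receptor kinases. The latter are BdiBd21-3.1G0687000 (-0.66, SE 0.16, adjusted p = 0.0140) and BdiBd21-3.2G0530000 (-0.57, SE 0.18, adjusted p = 0.0495). Each of these 4 calls was lost when at least 1 root library was left out.

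**Figure D4:**
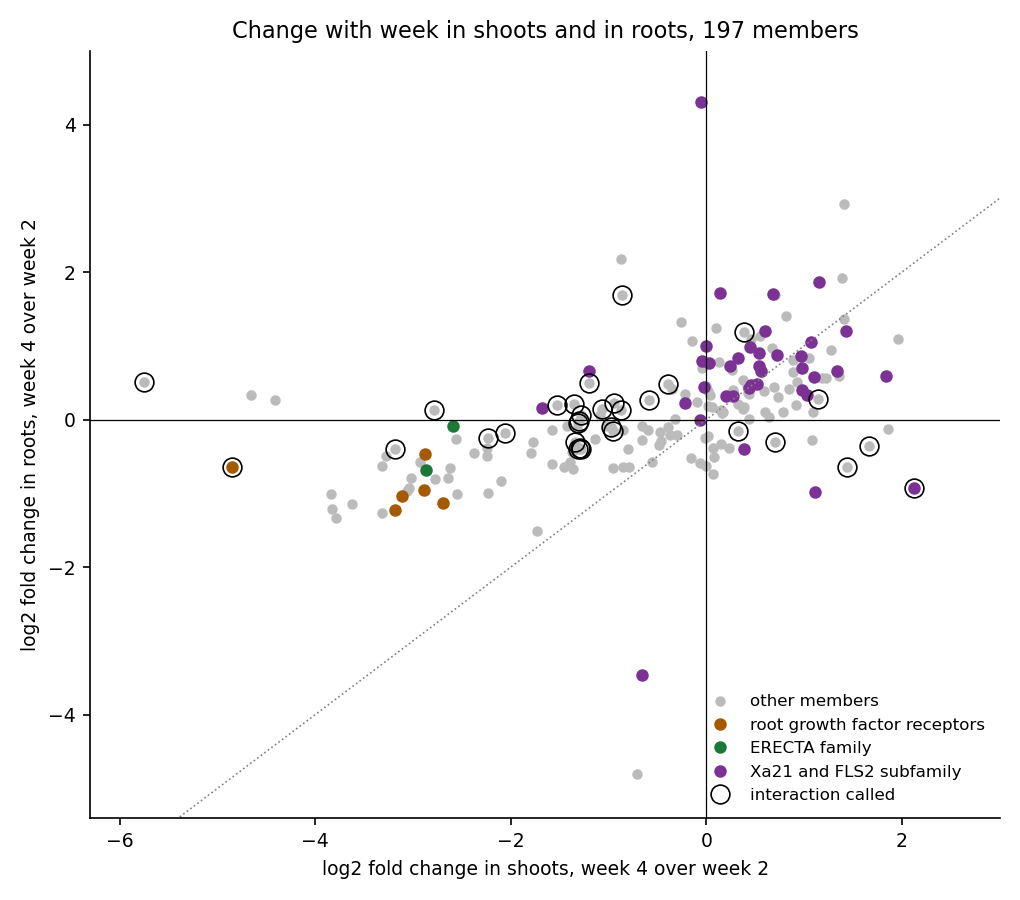
Log2 fold change from week 2 to week 4 in shoots (horizontal) and roots (vertical) for the 197 tested members, with 3 role groups coloured and the members with a called interaction circled. The dotted line marks equal change. The 6 root growth factor receptors and both ERECTA genes lie far to the left, below 0 in shoots, and most Xa21 and FLS2 members lie above 0 in both organs. Points beyond 4 in size on either axis belong to genes with at most 1 count in a group.

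The last comparison was the interaction, the change with week in roots minus that in shoots. It was called for 31 members, 25 with the higher change in roots and 6 with the higher change in shoots, or 15.7% against 8.52% of all genes (6.56% and 1.95%). The member median was 0.46, beside 0.11 over all tested genes. Leaving out week 4 shoot replicate 1 gave 71 calls (60 and 11), and leaving out week 4 root replicate 2 gave 14. It was 18 without week 2 root replicate 2 or without week 2 shoot replicate 1, 20 without week 2 shoot replicate 2 and 19 without week 4 shoot replicate 2. The MIK2 match BdiBd21-3.1G0224100 (chromosome 1, 13865916 to 13870187, plus strand) had the largest fitted interaction. Roots held 5.03, 9.93 and 10.3 CPM at week 2 and 16.5, 10.5 and 8.97 at week 4. Shoots held 1.41, 1.35 and 0.916 CPM at week 2, and 1 count was left in the 3 libraries of week 4. Week 2 roots and week 4 roots overlapped, whereas every week 2 shoot lay above every week 4 shoot, by a ratio of 71.5 (counting interval 12.4 to 2863). Without week 4 shoot replicate 1, which held the 1 count, the ratio was at least 14.9 and the fitted interaction went from 6.26 to 8.27.

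Genes that act downstream of the receptors were counted by name. Of 20 tested cytoplasmic kinases of the PBS1 and APK1 type, 9 were higher and 4 lower in roots at week 2, and 6 and 3 at week 4. Of 9 tested NADPH oxidases, which make reactive oxygen after receptor activation, 6 were higher and 0 lower by edgeR at week 2, and 7 and 1 at week 4. The most abundant per kilobase, BdiBd21-3.2G0170600, was not called at week 2 (234 ± 17.6 CPM in roots, 225 ± 14.97 in shoots). Of 50 tested genes of MAP kinase cascades, 12 were higher and 8 lower at week 2, and 11 and 18 at week 4. Over all tested genes, 28.4% were higher and 27.7% lower in roots at week 2, and 32.4% and 28.5% at week 4.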

How the data were processed

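The authors deposited raw read counts per gene for 12 libraries, 3 per group, made from poly-T-captured messenger RNA per the labels' protocols. Per the submitters' processing notes, HISAT2 2.0.5, featureCounts 1.5.0-p3 and HTSeq 0.6.1 are named, with no role or order. The sources used here do not give the genome build, the strand setting or the treatment of reads matching more than one gene, so antisense or overlapping genes cannot be told apart. Positions, lengths and best-match names are those of the deposited table. No identifier of the table matched the RefSeq gene table of line Bd21 (0 matches), so that table was not used. Columns were matched to samples by tissue, week and replicate number in the titles.

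The tests ran in R 4.3.3 and edgeR 4.0.16: filterByExpr (minimum count 10, minimum total 15; 26463 genes kept), TMM scaling, 1 mean per group over 12 libraries, robust quasi-likelihood F tests, and two-sided p-values adjusted by Benjamini-Hochberg over all tested genes and called under 0.05. Log2 fold changes use a prior count of 0.125. Standard errors were derived from the log2 fold change and F (size over root of F). Folds against groups with no count use a floor of 3 counts over the group, and ratios against 1 to 3 counts have exact 95% binomial intervals. Floors and intervals cover counting error only.

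Members, role groups and ligand lists were chosen with earlier results of these data known, and the role groups were built from best-match names and domain text. Named members are, per contrast, the 3 highest and 3 lowest log2 fold changes among called members whose average log2 CPM is 1 or more and whose groups do not overlap (a condition not set for the interaction), the 3 most abundant per kb of each role group, and the brassinosteroid receptors and co-receptors. Of each pathway list the most abundant gene per kb is named. The alternatives were RLE and upper-quartile scaling, TMM without the 50 most counted genes, no low-count filter, CPM 1 in 3 libraries, the replicate number as a block, the compared libraries alone, limma-voom (limma 3.58.1), the DESeq2 1.42.0 Wald test, and leaving out each library. Role-group counts under these alternatives, and ratios and role-group medians without week 4 shoot replicate 1, were added after the data were seen.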

Additional observations from a re-analysis of the deposited data

Results flagged for a closer look

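The change with week differed between roots and shoots, by the edgeR interaction test, for 15 of the 63 named members. Some of these were named for an extreme interaction, so the share to read is 31 of the 197 tested members, 15.7%, against 8.52% of all tested genes. The interaction is the log2 change from week 2 to week 4 in roots minus that in shoots. It was positive for the MIK2 match BdiBd21-3.1G0224100 (6.26), the At4g26540 match BdiBd21-3.3G0516600 (4.21), the BAM1 match BdiBd21-3.1G0931500 (2.92) and the NIK1 match BdiBd21-3.3G0744400 (1.98). The first 2 of these rest on 1 count in week 4 shoots, in replicate 1. Without that library the values of the first 3 were 8.27, 6.21 and 3.64. It was also positive for the PSY1R match BdiBd21-3.3G0018550 (1.70), the At1g67720 match BdiBd21-3.4G0626700 (1.17), the FEI 1 match BdiBd21-3.1G0903200 (0.91) and the TMK1 match BdiBd21-3.3G0705600 (0.91). Smaller positive values belonged to the STRUBBELIG-RECEPTOR FAMILY 6 match BdiBd21-3.1G0274600 (0.86) and the At1g63430 match BdiBd21-3.5G0219900 (0.80), whose call was lost without week 4 shoot replicate 1 (0.70, adjusted p = 0.0694 from edgeR).

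The interaction was negative for the RLK902 match BdiBd21-3.4G0418700 (-2.09), the pollen receptor kinase 4 match BdiBd21-3.3G0532400 (-2.02), the At5g45780 match BdiBd21-3.3G0121800 (-1.01), the HAIKU2 match BdiBd21-3.4G0009800 (-0.87) and the SERK1 match BdiBd21-3.3G0620800 (-0.47). Of the 15 calls, 7 were lost under at least 1 of the 20 alternatives that gave an interaction. The call of BdiBd21-3.5G0219900 was lost under 15 of them, RLE scaling and the replicate block included. That of BdiBd21-3.3G0620800 was lost under 13, of BdiBd21-3.3G0705600 under 10 and of BdiBd21-3.3G0532400 under 9. The calls of BdiBd21-3.1G0903200 and BdiBd21-3.4G0009800 were each lost under 7, and that of BdiBd21-3.3G0516600 under 3.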

How the results depend on the processing

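Across 21 alternatives, no called value of a named member turned in sign. The member median of root over shoot, on the log2 scale, ran from -0.09 to 0.0042 at week 2, taking either sign near 0, and from 0.48 to 0.64 at week 4. The other medians kept their sign. Of 173 calls of named members, 137 held under every alternative that gave a value and 36 were lost under at least 1, of which 11 were changes with week in roots. The members called by the interaction were 31, and 57 with limma-voom and 58 with DESeq2. The members called between weeks in roots were 42, and 67 when the root libraries were fitted alone (30 higher and 37 lower). The cause was not tested. Leaving out each library in turn gave 117 to 139 members called between organs at week 2, 144 to 160 at week 4, 23 to 63 between weeks in roots, 97 to 115 between weeks in shoots and 14 to 71 for the interaction. Same-numbered libraries of 2 groups correlated at -0.12 to 0.18 in their deviations. With 3 libraries per group, these values cannot decide whether the numbers pair the samples. With the replicate block, 128 members were called between organs at week 2 and 36 between weeks in roots. Members at under 1 CPM rest on few counts, and a group of 3 libraries limits the detection of small changes.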
